A study of Mus musculus with 78 samples.

Results

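RNA polymerase II (RNAPII) peaks were compared in mouse embryonic stem cells (mESCs) that had kept or lost TRIM28, a repressor of endogenous retroviruses (ERVs). The members are the 4 RNAPII ChIP-seq libraries of a series of 78 samples: 2 from cells given DMSO, the solvent, and 2 from cells given 500 nM dTAG-13, each for 24 h. All 4 libraries were made from V6.5 mESCs whose TRIM28 carries an FKBP tag at its own locus, so the controls carry the tag too. dTAG-13 recruits tagged proteins to the degradation machinery, which makes this a loss of the protein and not of the gene. The cells were expanded on mouse embryonic fibroblast feeders in serum and LIF and were freed of feeders before the experiment. The RNAPII peaks cannot check the loss of TRIM28, which is a loss of protein.

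RNAPII transcribes all protein-coding genes and most small nuclear RNA genes, and in ChIP-seq it piles up just downstream of gene starts, where it pauses before it moves into the gene body. It is also found at active enhancers, and in mESCs at super-enhancers (SEs), the dense enhancer clusters next to pluripotency genes. TRIM28 is brought to ERVs by KRAB zinc finger proteins and recruits SETDB1, which lays down the repressive mark H3K9me3. The comparison asks where RNAPII is found before and after TRIM28 is degraded.

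The deposited peak lists differed in length, with 19853 and 19194 peaks in the DMSO libraries and 8182 and 7689 in the dTAG-13 libraries. The 7689 peaks with the highest fold enrichment over background were therefore used in each library, which is 38.7% and 40.1% of the DMSO peaks and 94.0% and 100% of the dTAG-13 peaks. These peaks had a median enrichment of 10.3 and 10.0 in DMSO and of 5.38 and 5.22 after dTAG-13. They were also wider in DMSO, with medians of 794 and 777 bp against 304 and 279 bp. The read depth behind the peaks is unknown, so its part in these differences was not tested. Fly cells were added as a spike-in, but the peaks are not scaled to them, and every change below is a change in enrichment relative to other sites. One input library was sequenced per treatment, so both libraries of a group may share a background, and the labels do not say that the replicates came from separate cultures. The p-values then measure only the spread between these libraries, which may be technical.

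Merging the used peaks of the 4 libraries gave 9979 sites. For 5 of them the 300 bp around the summit are printed, in the mm10 build of the mouse genome and on the plus strand, because they are the clearest cases of each pattern: the start site that rose most, the start site that fell most, the strongest site listed in DMSO only and the pair of strongest sites listed after dTAG-13 only. Capitals mark 4 short motifs read on both strands: the NF-Y box CCAAT, the common core of the TATA box written TATAAA, the octamer core written ATGCAAA, and the GC box GGGCGG.
Gm15446, higher, chr5:109922503-109922802: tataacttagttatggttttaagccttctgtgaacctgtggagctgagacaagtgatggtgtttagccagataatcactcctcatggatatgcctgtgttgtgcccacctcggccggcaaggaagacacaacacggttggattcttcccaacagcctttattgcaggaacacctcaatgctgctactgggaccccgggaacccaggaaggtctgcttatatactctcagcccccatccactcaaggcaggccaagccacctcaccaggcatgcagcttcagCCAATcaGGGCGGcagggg
1300017J02Rik and Topbp1, lower, chr9:103304849-103305148: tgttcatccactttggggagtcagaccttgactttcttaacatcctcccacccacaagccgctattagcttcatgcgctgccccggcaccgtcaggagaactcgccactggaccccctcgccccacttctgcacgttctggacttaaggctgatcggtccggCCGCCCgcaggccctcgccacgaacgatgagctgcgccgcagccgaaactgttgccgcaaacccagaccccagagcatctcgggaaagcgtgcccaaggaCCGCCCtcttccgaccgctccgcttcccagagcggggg
Gar1, DMSO only, chr3:129830940-129831239: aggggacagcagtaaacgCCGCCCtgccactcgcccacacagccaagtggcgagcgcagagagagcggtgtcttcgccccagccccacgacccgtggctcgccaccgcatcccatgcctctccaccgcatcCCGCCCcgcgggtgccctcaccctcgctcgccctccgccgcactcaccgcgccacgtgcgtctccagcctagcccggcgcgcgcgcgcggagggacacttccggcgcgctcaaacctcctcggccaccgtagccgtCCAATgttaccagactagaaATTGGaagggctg
Nearest to G930009F23Rik, dTAG-13 only, chr15:38434858-38435157: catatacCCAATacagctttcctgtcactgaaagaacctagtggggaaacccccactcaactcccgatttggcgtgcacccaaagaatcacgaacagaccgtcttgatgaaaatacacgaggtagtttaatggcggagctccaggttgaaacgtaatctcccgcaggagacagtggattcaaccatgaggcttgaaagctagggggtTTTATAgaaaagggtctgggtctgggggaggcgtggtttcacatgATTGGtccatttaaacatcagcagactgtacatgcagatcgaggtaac
Nearest to Mtmr14, dTAG-13 only, chr6:113228006-113228305: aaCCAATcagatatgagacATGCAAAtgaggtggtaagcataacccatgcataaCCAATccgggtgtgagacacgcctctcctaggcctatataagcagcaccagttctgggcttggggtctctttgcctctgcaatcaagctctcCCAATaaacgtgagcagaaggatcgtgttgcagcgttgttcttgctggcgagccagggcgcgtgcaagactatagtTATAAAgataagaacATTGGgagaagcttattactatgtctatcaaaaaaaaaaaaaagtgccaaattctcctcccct
The Gar1 window is 70% GC with 36 CpGs, whereas the Mtmr14 window is 45.7% GC with 8 CpGs and 4 CCAAT boxes. This contrast does not hold for every site listed in DMSO only. The window of the DMSO-only distal site near Gm12984, not printed, is 49.3% GC with 15 CpGs, 2 CCAAT boxes and 1 TATAAA. It shares long stretches of bases with the dTAG-13-only window near G930009F23Rik, which is 48.3% GC with 10 CpGs.

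Replicate libraries resembled each other far more than libraries of different treatment. Of the used peaks, 88.6% and 88.8% of the DMSO libraries overlapped each other, as did 80.8% and 84.9% of the dTAG-13 libraries. Between treatments, 61.9% to 63.8% of the DMSO peaks were overlapped by a dTAG-13 peak, and 80.0% to 81.9% of the dTAG-13 peaks by a DMSO peak. Across the 5321 sites with a deposited peak in all 4 libraries, Pearson's r of the log2 enrichment was 0.960 between DMSO libraries, 0.937 between dTAG-13 libraries and 0.524 to 0.560 between treatments. These r values are across sites, which are not independent replicates.

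Weak RNAPII sites were the ones most often without a peak after dTAG-13. Fewer cells with RNAPII at a site and less RNAPII per cell cannot be told apart in these bulk samples. Sites used in both DMSO libraries were placed in bins of their mean DMSO enrichment. Below 8-fold, 32.9% of 1247 sites had a peak in both dTAG-13 libraries. This share was 56.0% of 2597 sites at 8 to 12-fold, 81.3% of 1869 at 12 to 20-fold and 95.4% of 786 at 20 to 40-fold. All 193 sites of at least 40-fold kept a peak in both dTAG-13 libraries. Among sites that kept their peaks, the median enrichment went from 7.46 to 5.30 in the weakest bin, from 15.0 to 6.17 at 12 to 20-fold and from 59.3 to 21.8 in the strongest bin. A peak in all 4 libraries is needed for a comparison of levels, so weak sites enter it only where their dTAG-13 value happened to be high enough for a call.

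**Figure D1:**
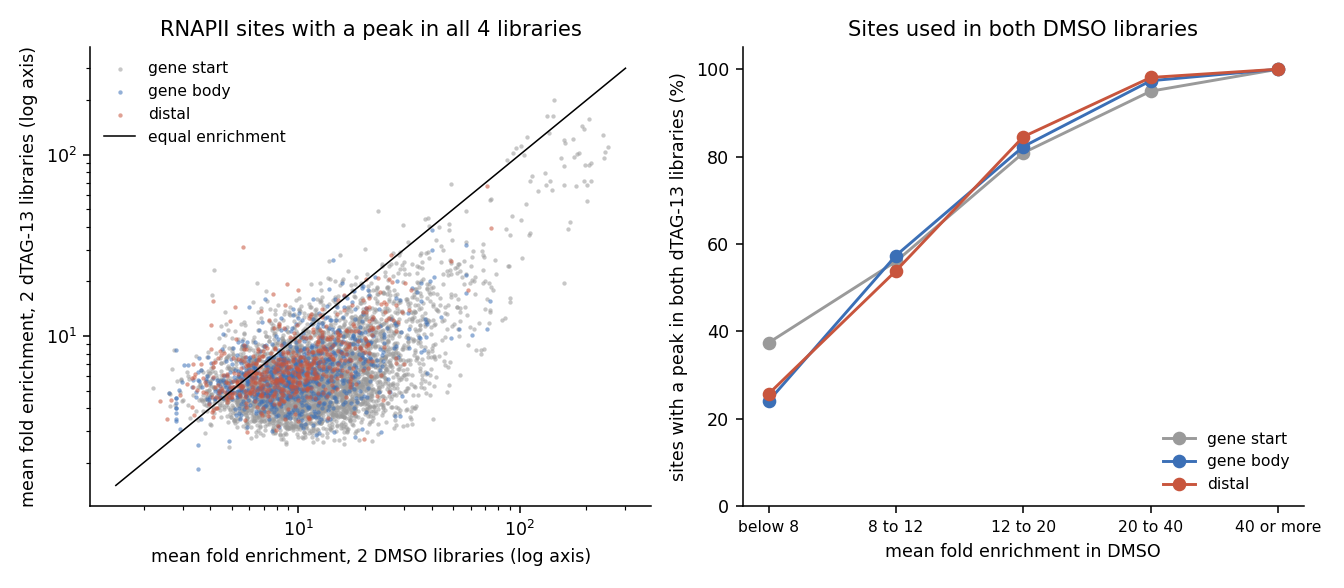
Left, the mean RNAPII fold enrichment of the 5321 sites with a peak in all 4 libraries, in 2 DMSO libraries (x, log axis) and 2 dTAG-13 libraries (y, log axis), coloured by location, with the line of equal enrichment; right, the share of sites used in both DMSO libraries that had a peak in both dTAG-13 libraries, by mean DMSO enrichment. Most points lie below the line, and over all locations the share climbs from 32.9% in the weakest bin to 100% in the strongest.

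RNAPII enrichment at the 5321 sites was compared with limma on the log2 scale after each library was centred on its median, so that higher and lower mean relative to the median site. At an adjusted p below 0.05 (limma, Benjamini-Hochberg), 1671 sites were higher after dTAG-13 (31.4%) and 1451 were lower (27.3%). Without centring 265 sites were higher and 3848 lower, since the median site fell to 0.539 of its DMSO enrichment. Of the called sites, 53.5% were higher with centring and 6.44% without. Because the log2 difference ran against the DMSO level (Spearman's rho -0.677 across 5321 sites that share libraries), the 822 sites of at least 20-fold enrichment in both DMSO libraries were also fitted on their own. This minimum was chosen after the data were seen. It was set on the DMSO libraries only, which by itself favours lower values after dTAG-13. Such strong sites are centred on their own median. Among them 278 were higher (33.8%) and 343 lower (41.7%). Over this narrower range of DMSO levels the log2 difference no longer followed the DMSO level (rho 0.018). Without centring 6 strong sites were higher and 780 lower, with a median of 0.327 of the DMSO enrichment.

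Gene starts, taken as within 1000 bp of the 5′ end of a gene in a StringTie table of mESCs, held most RNAPII peaks in every library. They held 71.3% and 71.5% of the used peaks in DMSO against 67.4% and 66.8% after dTAG-13. Gene bodies held 17.2% and 17.1% in DMSO against 19.5% and 19.8% after dTAG-13. Distal sites, outside all genes, held 11.5% and 11.4% in DMSO against 13.1% and 13.4% after dTAG-13. The groups did not overlap in any of these shares. The share at starts was lower by 4.25 percentage points after dTAG-13, and those in bodies and at distal sites were higher by 2.48 and 1.78, and for each a two-sided exact permutation test gave 0.333, the lowest p that 4 libraries can reach. With all deposited peaks the shares at starts were 49.8% and 51.8% in DMSO against 68.6% and 66.8% after dTAG-13, so the direction turned with the number of peaks compared.

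Within the start window the summits sat just downstream of the start in both groups. Their median distance downstream was 78 and 83 bp in the DMSO libraries, against 77 and 82 bp in those of dTAG-13. The summits were more scattered after dTAG-13: 74.3% and 74.1% lay within 200 bp of the start in DMSO against 67.5% and 65.9% after dTAG-13. Peaks were found mainly at starts of expressed genes. Among 1726 genes of at least 100 TPM (an mRNA level scaled to gene length and library size) in DMSO, 72.2% and 72.4% had a used start peak in the DMSO libraries and 64.4% in each dTAG-13 library. Among 24094 genes at 0 TPM, 0.647% and 0.610% had one in DMSO against 0.519% and 0.490% after dTAG-13.

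Distal RNAPII sites were more often higher after dTAG-13 than RNAPII sites as a whole. Of 551 fitted distal sites, 271 were higher and 37 lower, with a median log2 difference of 0.43, although without centring 43 were higher and 302 lower. Of 796 fitted sites in gene bodies, 313 were higher and 138 lower (54 and 509 without centring). Of 3974 sites at gene starts, 1087 were higher and 1276 lower (168 and 3037 without centring). Distal sites are weaker in DMSO, with a median enrichment of 9.42 against 12.1 at starts, and strength moves with the difference. Among strong sites the split remained at distal sites, with 28 of 40 higher (70%) and 8 lower (20.0%), a median log2 difference of 0.50, although without centring none of the 40 was higher and 35 were lower. It did not remain in gene bodies, where 21 of 71 strong sites were higher and 26 lower. Of the 40 strong distal sites 28 were below 55% GC, and 24 of these were higher. Strong start sites below 55% GC were also mostly higher, in 73 of 112 cases, and lower in 18. Many gene body sites lie within 1000 bp of an annotated transcript start, which need not belong to the same gene. This held for 39.1% of all 1930 body sites, for 77.5% of the strong ones and for 24 of the 26 strong ones that were lower. With starts of all annotated transcripts, the share of used peaks at starts was 79.0% in both DMSO libraries and 76.1% and 75.1% after dTAG-13.

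The base composition of a strong site went with its direction. Across the 822 strong sites, Spearman's rho between the log2 difference and GC content was -0.452, and with the number of CpGs it was -0.422. Strong start sites below 50% GC were higher in 37 of 50 cases (74.0%) and lower in 6 (12.0%). Those of at least 70% GC were higher in 21 of 168 cases (12.5%) and lower in 103 (61.3%). The small RNA genes described next fill much of the lowest bin: without them, 11 of 22 start sites below 50% GC were higher and 6 lower, and 28 of 48 at 50 to 55% GC were higher and 9 lower. Distal strong sites below 55% GC were higher in 24 of 28 cases and lower in 1, and body sites in 11 and 3 of 24. At 55 to 65% GC distal strong sites were higher in 4 of 10 cases and lower in 5. The 2 distal strong sites of at least 65% GC were both lower. A TATAAA motif was present at 133 strong sites, of which 70 were higher and 39 lower, against 208 higher and 304 lower of the 689 without it. The groups with and without TATAAA also differ in median GC content, 60.0% against 65.0%. GC content can affect ChIP-seq enrichment as well as promoter class, and its part in these differences was not tested.

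**Figure D2:**
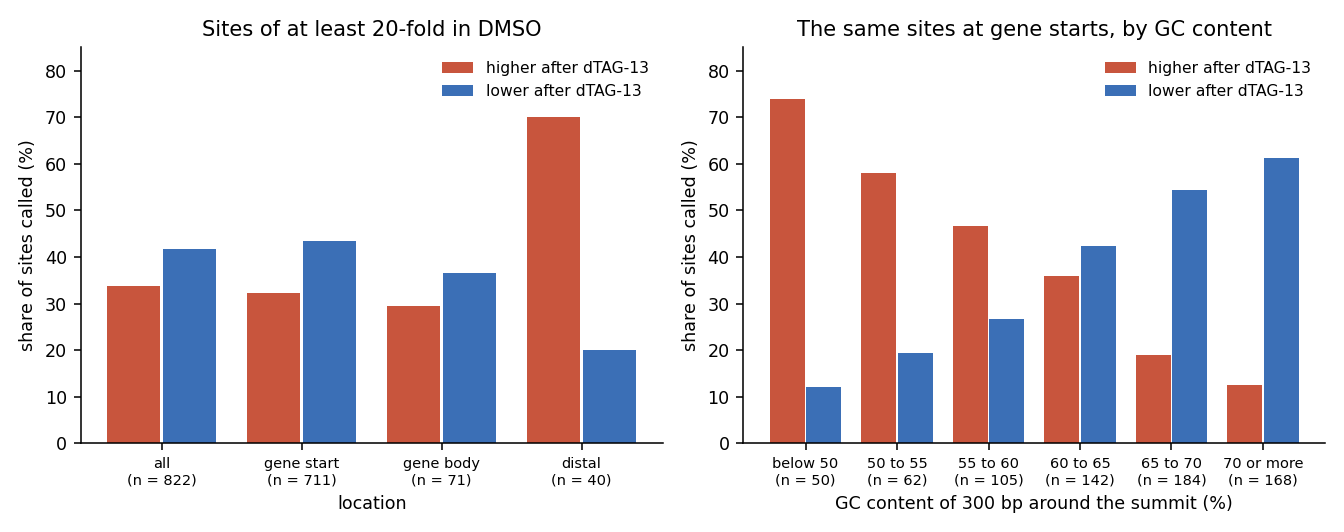
Share of strong RNAPII sites (at least 20-fold in both DMSO libraries) called higher (red) or lower (blue) after dTAG-13, by location (left) and, for start sites, by GC content of the 300 bp around the summit (right), with the number of sites under each pair of bars. Distal sites were higher in 70% of cases against 33.8% of all strong sites, and the share called lower climbs from 12.0% below 50% GC to 61.3% at 70% GC or more.

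The strongest RNAPII sites in both groups lay at small nuclear and nucleolar RNA genes, whose products splice mRNA or process ribosomal and histone RNA. The 10 sites with the highest mean enrichment were all of this kind. Of 1018 annotated genes of these families, 50 had a site at their start, on 49 sites, not counting Snord118, described below. U6 (713 genes) and 7SK had none, and both are transcribed by RNA polymerase III. On 43 strong sites the members were higher relative to other strong sites in 35 cases and lower in 3, with a median log2 difference of 0.62. This depends on the reference, since centred on all sites 19 of 44 were higher and 16 lower, and without centring 2 were higher and 34 lower. By family, 11 of 16 strong U1 sites were higher and 3 lower, 10 of 11 U2 sites were higher, all 5 U3 sites were higher, and 6 of 7 U5 sites were higher. Their copies are near-identical, reads can be shared between them, and how multi-mapped ChIP-seq reads were handled is not given in the sources used here, so values of single copies are uncertain.

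Rnu1a1, a U1 gene, had an enrichment of 146 and 140 in DMSO against 203 and 198 after dTAG-13. It was higher by 1.43 on the log2 scale (SE 0.05, limma adjusted p = 1.63e-05) and the groups did not overlap. Rnu3a, a U3 gene, had 205 and 206 in DMSO against 162 and 155 after dTAG-13, a difference of 0.56 relative to the median site, which without centring was -0.38. Rnu3b3, another U3 gene and the strongest site in DMSO, had 255 and 248 in DMSO against 118 and 103 after dTAG-13. Its log2 difference was -0.25 against all sites and 0.29 against strong sites, so its direction turned with the reference. Snord118, which encodes U8, had 244 and 230 in DMSO against 137 and 118 after dTAG-13, a difference of 0.05 that did not pass the test (limma adjusted p = 0.523). The U1 copy Gm25890 moved the other way, from 169 and 161 to 42.6 and 35.2 (log2 difference -1.15, SE 0.08). Rnu7, the RNA that processes histone mRNA ends, had 59.0 and 54.9 in DMSO against 24.0 and 19.7 after dTAG-13.

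**Figure D3:**
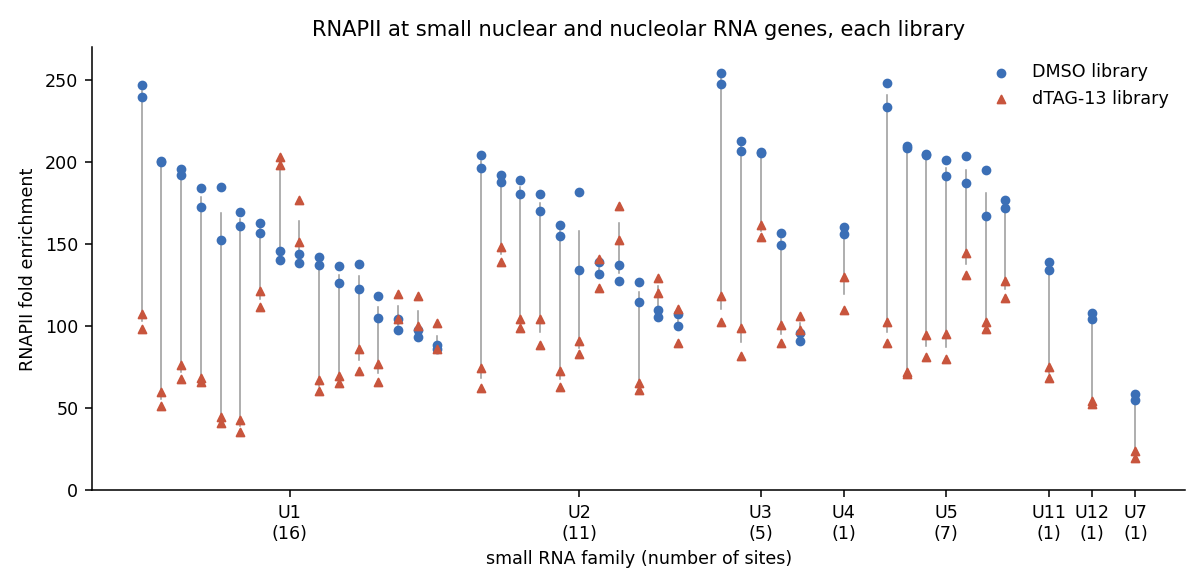
RNAPII fold enrichment of the 43 strong sites at small nuclear and nucleolar RNA genes in each library (DMSO, blue circles; dTAG-13, red triangles), grouped by family with the number of sites, with a line joining the means. Snord118 is not among these sites. Most sites were lower in absolute enrichment after dTAG-13, whereas Rnu1a1 (U1) went from 146 and 140 to 203 and 198.

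At gene starts the largest rises after dTAG-13 were at sites weak in DMSO. A low DMSO value by itself favours a large ratio, so this is not a separate result. The site at Gm15446 (chr5:109922080-109924047), a zinc finger gene whose window is printed above, had 4.1 and 4.22 in DMSO against 24.7 and 21.6 after dTAG-13. This was a log2 difference of 3.41 (SE 0.13, limma adjusted p = 2.09e-05), the largest of all sites. Zfp991 (chr4:147131822-147132339), also a zinc finger gene, had 4.03 and 4.1 in DMSO against 18.6 and 14.9 after dTAG-13, a difference of 2.98. Lsm8, a subunit of the U6 RNA-binding ring, had 7.36 and 5.64 in DMSO against 21.0 and 18.4 after dTAG-13. Smn1, which assembles small nuclear ribonucleoproteins, had 4.58 and 4.76 in DMSO against 15.1 and 12.0 after dTAG-13. In each of these the groups were well apart. Cdc45, a subunit of the replicative helicase, had 2.81 and 2.56 in DMSO against 7.64 and 5.51 after dTAG-13. Gstp2, Gm26734, Gm14401, AI506816 and Kif4 complete the 10 largest rises at starts, with log2 differences between 2.24 and 2.55. All 36 sites of any location that rose by more than 2 on the log2 scale had a mean DMSO enrichment of at most 22.9, with a median of 4.66.

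Among strong start sites, those of protein-coding genes were higher in 177 of 600 cases and lower in 274. The site at Rab26os, Snord60 and Traf7 had 24.6 and 21.2 in DMSO against 52.0 and 45.5 after dTAG-13, the largest rise among strong sites. Cbx7, a Polycomb subunit, had 51.3 and 46.5 in DMSO against 72.1 and 65.9 after dTAG-13. Rps27, a ribosomal protein gene, had 29.4 and 30.0 in DMSO against 43.0 and 39.0 after dTAG-13. These sites were above their DMSO level in both dTAG-13 libraries even without centring. Srsf3, a splicing factor, Rpl41, Rplp0 and Ints6, an Integrator subunit, followed with log2 differences of 1.20, 1.16, 1.04 and 1.01 relative to the median site.

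The largest falls among fitted sites were at strong starts. The filter itself favours this, since a weak site that falls far loses its dTAG-13 peak and is not fitted. The shared start of 1300017J02Rik and Topbp1, a DNA damage checkpoint protein, had 38.6 and 42.7 in DMSO against 3.18 and 3.81 after dTAG-13 (chr9:103304594-103306193). This was a log2 difference of -2.60 (SE 0.15, limma adjusted p = 3.71e-05). Ulk1, the autophagy kinase, had 35.4 and 30.0 in DMSO against 3.32 and 3.23 after dTAG-13. Atf6, a sensor of unfolded proteins, had 33.3 and 28.9 in DMSO against 3.45 and 3.01 after dTAG-13. Pcif1, the cap-adjacent mRNA methyltransferase, had 49.0 and 44.9 in DMSO against 5.42 and 4.43 after dTAG-13. Each of these sites was among the strong ones in DMSO and no more than about as enriched as the median used peak after dTAG-13. Rpl14 had 46.6 and 49.0 in DMSO against 5.25 and 5.48 after dTAG-13, the opposite of Rps27. Slc25a5, a mitochondrial ADP/ATP carrier, had 53.3 and 53.7 in DMSO against 6.61 and 5.63 after dTAG-13. Adpgk, Trim59, Srp9 and Lcmt2 complete the 10 largest falls at starts, with log2 differences between -2.16 and -2.27.

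In gene bodies a site nearest to the zinc finger gene Zfp992 had 6.06 and 5.96 in DMSO against 16.3 and 12.7 after dTAG-13 (log2 difference 2.20). A site 3346 bp into Brd2, a bromodomain protein that binds acetylated histones, had 70.4 and 72.1 in DMSO against 12.0 and 9.94 after dTAG-13 (log2 difference -1.77). A body site nearest to Sgo2a had 24.4 and 22.8 in DMSO against 2.75 and 3.18 after dTAG-13. At distal sites the largest rise was on an MMERVK element, an ERV family, upstream of Gm47806. The Gm47806 site had 6.27 and 5.04 in DMSO against 33.1 and 28.8 after dTAG-13, a log2 difference of 3.4 (SE 0.13, limma adjusted p = 2.09e-05). The distal site nearest to Gm20940 had 4.45 and 3.82 in DMSO against 15.7 and 15.4 after dTAG-13. Of the 5 distal sites that rose most, those near Gm47806, Gm20940, Gm24830 and B230208H11Rik hold both CCAAT and ATGCAAA in the 300 bp window. The largest distal fall, near 2900024D18Rik, went from 20.6 and 19 to 2.73 and 2.7.

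Sites found in one group only were unequal in number. Used in both DMSO libraries and without any deposited dTAG-13 peak were 1687 sites, of which 1136 were at starts. The reverse held for 66 sites, of which 36 were distal, 19 in gene bodies and 11 at starts. No test was made of these counts, which depend on how absence is defined. If it means no used peak in place of no deposited peak, 1785 sites were found in DMSO only and 730 after dTAG-13 only. The part of the unequal lengths of the deposited lists was not tested. The strongest DMSO-only site, at Gar1 (a subunit of the H/ACA RNA-protein complexes), had 25.8 and 29.0. Clptm1l had 23.8 and 24.8, and a distal site near Gm12984 had 26.5 and 26.2. Prps1, Spats2, Mia3, Smim8, Trim45, Rad51ap2 and Exog, all at starts, complete the 10 strongest.

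The dTAG-13-only sites differed from the others in sequence, and also in location. Their median GC content was 49.3% with 6 CpGs, against 65.3% with 24 CpGs at DMSO-only sites and 63.3% with 24 CpGs at sites with a peak in all 4 libraries. Of these 3 classes 16.7%, 67.3% and 74.7% were at starts. Among distal sites alone their median GC content was 48.8%, 55.8% and 49.7%, and in gene bodies 49.7%, 56.3% and 54.3%. The motif shares were not split by location. Some dTAG-13-only windows share long stretches of bases, as those near Mtmr14 and Gm15579 do, so the windows are not all independent. CCAAT was present in 62.1% of the dTAG-13-only windows, against 29.9% of the DMSO-only windows and 34.5% of those of all 4 libraries. ATGCAAA was present in 30.3% against 1.96% and 3.66%, TATAAA in 25.8% against 5.75% and 8.19%, and GGGCGG in 15.2% against 62.6% and 59.3%. A motif match is a description of letters and not a bound site. The strongest, near G930009F23Rik, had 10.4 and 11.0 after dTAG-13, and the one near Mtmr14 had 10.6 and 10.5. Neither lies on an element of the ERV lists used here. These lists hold only full-length elements of the families MMERVK and MMETn. Overlap with IAPs, another ERV family, or with other and partial ERV copies was not examined. A site near Gmnn on an MMERVK element had 11.5 and 8.71, and one in Gm4316, also on MMERVK, had 9.95 and 8.93.

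Pluripotency genes kept or lost RNAPII start peaks in shares near those of all genes. Of 20 listed genes, 13 had a start peak in both DMSO libraries and 8 in both dTAG-13 libraries, and 4 had one in both DMSO libraries and in neither dTAG-13 library. Over all genes, 4179 of the 10432 with a start peak in both DMSO libraries (40.1%) had none after dTAG-13. Of 8 fitted starts, 2 were higher and 3 lower. Over all 3960 fitted starts of distinct sites 26.8% were higher and 32.2% lower, the shares against which the counts of the gene lists are to be read. Klf4, a reprogramming factor, had 30.6 and 28.1 in DMSO against 8.56 and 8.33 after dTAG-13 (log2 difference -0.85, SE 0.10, limma adjusted p = 0.000450). Klf2, its relative, had 26.0 and 25.4 in DMSO against 8.86 and 7.11 after dTAG-13 (-0.75), and against strong sites its difference of -0.22 did not pass. Lin28a, an RNA-binding protein that blocks let-7, had 16.6 and 17.2 in DMSO against 4.65 and 3.66 after dTAG-13 (-1.09). These 3 were below the median site, and their groups did not overlap. Sox2, a core pluripotency factor, had 16.8 and 16.0 in DMSO against 8.61 and 5.28 after dTAG-13, and its difference of -0.34 relative to the median site did not pass the test (limma adjusted p = 0.187). Without dTAG-13 replicate 1 it was -0.66 and passed. Sall4 had 3.8 and 4.25 in DMSO against 5.03 and 4.48 after dTAG-13, a log2 difference of 1.18 that was 0.34 with centring by level and 0.24 without centring, where it did not pass. Dppa5a had 6.40 in both DMSO libraries and 5.98 and 6.07 after dTAG-13, a log2 difference of 0.85 with centring and of -0.09 without it. Pou5f1, which encodes OCT4, had 6.26 and 6.66 in DMSO and no peak after dTAG-13, and Zfp42, which encodes REX1, had 8.45 and 9.70 and none. Nanog had a start peak in 1 DMSO library only (3.97). Mir290a, whose microRNA cluster is specific to early embryonic cells, had 40.6 and 37.6 in DMSO against 19.5 and 15.4 after dTAG-13. Its difference was -0.23 against all sites (limma adjusted p = 0.109) and 0.31 against strong sites.

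Immediate early genes, which respond to signals within minutes, had mostly strong start peaks, with no common direction. Of 14 fitted starts among 20 listed genes, 4 were higher and 7 lower, against 26.8% and 32.2% of all starts. Against strong sites 4 of 11 were higher and 4 lower. Dusp1, a MAP kinase phosphatase, had 71.8 and 65.9 in DMSO against 9.03 and 7.98 after dTAG-13, a log2 difference of -2.08 (SE 0.09, limma adjusted p = 2.90e-05). Ier3 had 33.7 and 38.8 in DMSO against 6.12 and 5.42 after dTAG-13 (-1.71). Btg2, an antiproliferative factor, had 64.7 and 77.3 in DMSO against 17.1 and 14.7 after dTAG-13 (-1.21). In contrast Klf6, a Krüppel-like factor, had 28.8 and 28.9 in DMSO against 29.8 and 28.7 after dTAG-13, which is higher by 0.96 than the median site. Cyr61, a matrix protein, had 13.3 and 12.0 in DMSO against 19.5 and 11.9 after dTAG-13, so its groups overlapped although it passed the test (1.21). The AP-1 subunit gene Fos had 29.7 and 30.4 in DMSO against 9.55 and 8.20 after dTAG-13 (-0.82). Jun, its partner, had 25.1 and 25.3 in DMSO against 17.3 and 11.3 after dTAG-13, a difference of 0.09 that did not pass (limma adjusted p = 0.666) and that changed sign without dTAG-13 replicate 1.

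**Figure D4:**
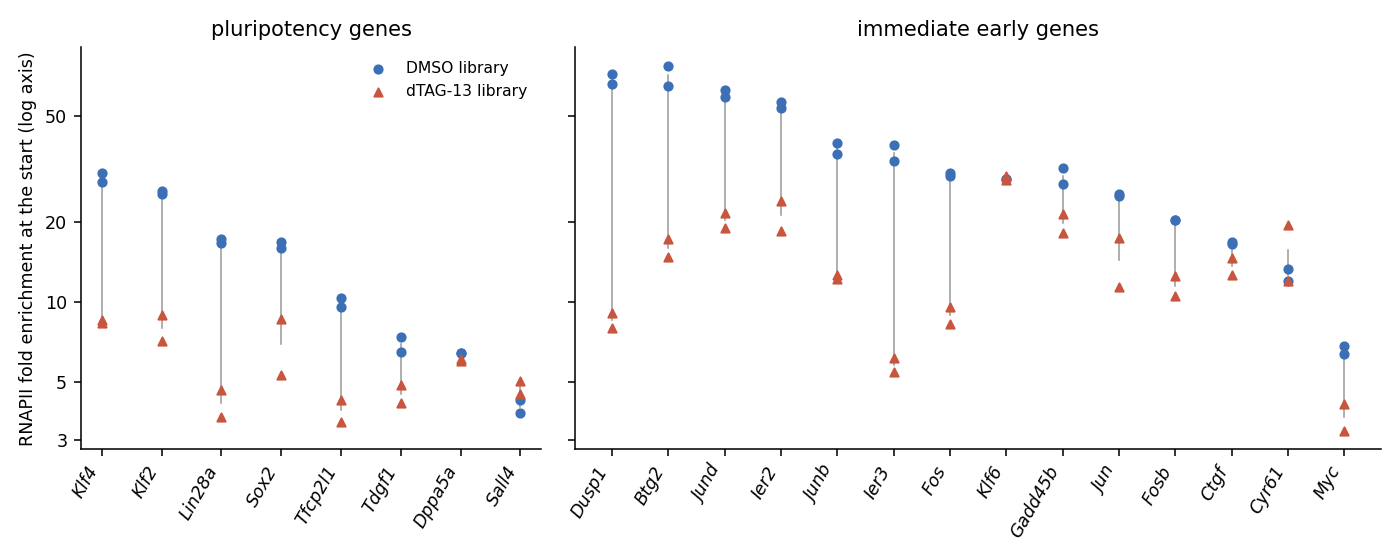
RNAPII fold enrichment (log axis) of each library at the starts of 8 pluripotency and 14 immediate early genes that had a peak in all 4 libraries (DMSO, blue circles; dTAG-13, red triangles), with a line joining the means. Klf4 went from 30.6 and 28.1 to 8.56 and 8.33 and Dusp1 from 71.8 and 65.9 to 9.03 and 7.98, whereas Klf6 stayed between 28.7 and 29.8.

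Genes of the amino acid response, which ATF4 turns on when amino acids are short, had no fitted start that was higher. Of 9 fitted starts of 17 with a site, 6 were lower, against 32.2% of all starts. Asns, Cebpb and Chac1 had start peaks in DMSO only, 3 of the 17 starts, near the 1094 of 6394 over all starts. Slc3a2, a subunit of amino acid transporters, had 93.5 and 86.4 in DMSO against 16.5 and 16.1 after dTAG-13 (log2 difference -1.52, SE 0.08, limma adjusted p = 3.09e-05). Sesn2, a leucine sensor, had 21.2 in both DMSO libraries and 4.91 and 4.83 after dTAG-13. Atf4 itself had 45.4 and 44.9 in DMSO against 20.8 and 17.8 after dTAG-13, with a difference of -0.29 against all sites and 0.25 against strong sites. Against strong sites 4 of 7 were higher and 2 lower, so the list's direction depended on the reference. Ddit3 is listed under 2 gene entries at the same start and counts as 2 of these genes.

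Genes of the transcription machinery showed no common direction. Among RNAPII subunits, 1 of 6 fitted starts was higher and 2 were lower, against 26.8% and 32.2% of all starts. Polr2a, the largest subunit and the one the antibody detects, had 93.5 and 91.4 in DMSO against 47.8 and 44.0 after dTAG-13, a difference of -0.07 relative to the median site that did not pass (limma adjusted p = 0.381). Against strong sites it was 0.47. Polr2j had 18.1 and 16.5 in DMSO against 3.27 and 4.50 after dTAG-13 (-1.23). Among pausing and elongation factors, 5 of 14 fitted starts were higher and 4 lower. Of 20 starts with a site, those of Cdk9, Ctr9, Leo1 and Nelfe were in DMSO only, near the 1094 of 6394 over all starts. Supt5, a subunit of the pausing factor DSIF, had 21.2 and 20.3 in DMSO against 5.60 and 5.26 after dTAG-13 (-0.99). Nelfb, a subunit of the pausing factor NELF, had 9.57 and 10.2 in DMSO against 13.1 and 12.7 after dTAG-13 (1.33). Hexim1, which holds the elongation kinase P-TEFb inactive, had 67.4 and 70.4 in DMSO against 32.3 and 22.4 after dTAG-13, a difference of -0.42 against all sites and 0.12 against strong sites. Among Mediator subunits, 4 of 16 fitted starts were higher and 3 lower. Of 25 starts with a site, 5 were in DMSO only, also near the 1094 of 6394 over all starts. Med9 had 4.01 and 3.89 in DMSO against 6.04 and 6.39 after dTAG-13 (1.60), and Med17 had 15.3 and 17.9 in DMSO against 3.04 and 2.87 after dTAG-13 (-1.55). Med29 and Paf1 share 1 start site and are counted in both lists.

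Of the TRIM28 pathway, 4 of 10 fitted starts were higher and 2 lower, against 26.8% and 32.2% of all starts. Cbx5, which encodes the heterochromatin protein HP1α, had 37.1 and 34.1 in DMSO against 29.8 and 27.3 after dTAG-13, a log2 difference of 0.62 with centring and of -0.32 without it. Smarcad1, a remodeler linked to ERV silencing, had 8.53 and 7.22 in DMSO against 12.3 and 14 after dTAG-13 (1.69). Zfp809, a KRAB zinc finger protein that recognises retroviral sequence, had 18.1 and 18.8 in DMSO against 5.74 and 4.87 after dTAG-13 (-0.86). Setdb1 had 7.75 and 7.27 in DMSO and no peak after dTAG-13. Trim28 had no peak at the start given in the gene table, which lies away from its annotated start, so its start peak could not be assigned. Across all genes with a Zfp symbol, 43 of 123 fitted start sites were higher and 30 lower, and without centring 12 were higher and 79 lower. The range was wide: Zfp81 had 4.37 and 4.94 in DMSO against 11.2 and 8.98 after dTAG-13, and Zfp213 had 32.9 and 32.8 in DMSO against 4.63 and 4.87 after dTAG-13.

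Ribosomal protein and histone genes, which hold many strong starts, were split. On 77 fitted start sites of ribosomal protein genes, 28 were higher and 29 lower, on 44 strong sites 24 were higher and 10 lower, and without centring 3 of the 77 were higher and 62 lower. On 34 fitted start sites of replication-dependent histone genes, 9 were higher and 16 lower, as strong sites 19 were higher and 8 lower, and without centring none was higher and 32 were lower. Genes nearest to an SE had a site at 109 of 217 starts, of which 64 were fitted, 18 higher (28.1%) and 25 lower (39.1%), and 19 were in DMSO only. Starts within 50 kb of an MMERVK or MMETn element had 243 sites for 638 genes, of which 155 were fitted, 44 higher (28.4%) and 41 lower (26.5%), 42 in DMSO only and 2 after dTAG-13 only. Both lists lie near all starts, of which 26.8% were higher and 32.2% lower, and 1094 of 6394 were in DMSO only. Formative and primed genes had 4 fitted starts (2 higher, 1 lower), imprinted genes 4 (1 higher, 1 lower) and Polycomb-bound developmental genes 1, which was higher. Interferon genes had 1 start site and no fitted one, and 2-cell genes had no start site.

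Fewer SEs and more MMERVK elements were overlapped by RNAPII peaks after dTAG-13, neither past what 4 libraries can show, and for SEs the direction turned with the 5000 strongest peaks (0.866 percentage points in place of -6.93). Of 231 SEs, 77 and 75 were overlapped by a used peak in DMSO (33.3% and 32.5%) and 59 and 61 after dTAG-13 (25.5% and 26.4%). Of 780 MMERVK elements, 8 and 7 were overlapped in DMSO (1.03% and 0.897%) and 19 and 17 after dTAG-13 (2.44% and 2.18%). Neither pair of groups overlapped, and each exact permutation test gave p = 0.333, the smallest that 2 against 2 allow. Of 445 MMETn elements, another ERV family, 38 and 41 were overlapped in DMSO against 37 and 34 after dTAG-13, also with p = 0.333 in the exact permutation test. With all deposited peaks 66.2% and 64.5% of SEs were overlapped in DMSO, and the MMERVK shares were 2.05% in both DMSO libraries and 2.44% and 2.18% after dTAG-13. The difference between group means was then 0.256 percentage points, against 1.35 with equal numbers of peaks.

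On MMERVK, 24 elements had a used peak in any library, 9 of them in both dTAG-13 and no DMSO libraries and 1 in both DMSO and no dTAG-13 libraries. The element near Gm24830 had 9.17 and 8.29 in DMSO against 19.8 and 11.4 after dTAG-13. An element near Gmnn had no peak in DMSO against 11.5 and 8.93 after dTAG-13, and one near Tmprss12 none and 7.84 and 5.77. An element near Vamp9 had 4.86 and 5.13 in DMSO against 9.41 and 7.66 after dTAG-13. Others had lower values after dTAG-13. One at the start of 1500011B03Rik had 33.7 and 32.8 in DMSO against 4.50 and 3.50. One near Gm20499 had 12.3 and 13.1 against 6.61 and 5.39. That fall is nearer to that of the median site, which went to 0.539 of its DMSO enrichment. Of 9 fitted sites on MMERVK, 6 were higher and 1 lower, and of 47 on MMETn 13 were higher and 4 lower. Of all fitted sites 31.4% were higher and 27.3% lower. All these counts are relative to the median site. Reads of ERV copies can map to several places, so values of single copies are uncertain.

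On SEs, 96 elements had a used peak in any library, 21 in both DMSO and no dTAG-13 libraries and 8 the reverse, which over all sites were 1785 and 730. Of 141 RNAPII sites on SEs, 29 were in DMSO only and none after dTAG-13 only, against 1687 and 66 of all 9979 sites. Of the 70 fitted sites on SEs, 27 were higher relative to the median site and 13 lower. Of all fitted sites 31.4% were higher and 27.3% lower. The SE element next to Cldn4, a tight junction gene, had 43.2 and 37.7 in DMSO against 9.68 and 8.85 after dTAG-13. The larger start site of Cldn4, which it overlaps in part, had 43.2 and 37.7 in DMSO against 15.7 and 14.3 after dTAG-13. The SE at Id1, an inhibitor of differentiation, had 29.6 and 29.0 in DMSO against 27.1 and 21.9 after dTAG-13. The SE near Fgf4, a growth factor, had 8.24 and 7.74 in DMSO and no peak after dTAG-13, and that near Esrrb, a pluripotency factor, had 7.50 and 7.67 and none.

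Other ChIP-seq libraries of the same line gave readouts that did not choose these sites. For each library the share of RNAPII sites overlapped by one of its 10000 strongest peaks was taken. For H3K9me3 these peaks covered 22.9 to 36.6 Mb in DMSO against 4.89 to 16.1 Mb after dTAG-13. MED23 peaks covered 14.4 and 15.0 Mb against 5.51 and 4.86 Mb, and H3K27Ac peaks 16.3 to 18.4 Mb against 8.14 to 18.1 Mb. Peaks that cover less sequence can overlap fewer sites, and the part of this in the lower shares after dTAG-13 was not tested. H3K9me3 overlapped 37.1%, 45.7% and 40.0% of the 35 RNAPII sites on MMERVK in DMSO against 2.86%, 0% and 2.86% after dTAG-13. It overlapped 22.7%, 28.8% and 21.2% of the 66 dTAG-13-only sites in DMSO against 4.55%, 0% and 6.06% after dTAG-13. The groups did not overlap, and both exact permutation tests gave p = 0.1, the smallest that 3 against 3 allow. At the sites with a used peak in all 4 RNAPII libraries H3K9me3 overlapped 0.765% at most. One H3K9me3 library after dTAG-13 (replicate 1) had 11474 deposited peaks against 104579 to 147611 in the others.

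MED23, a subunit of the Mediator coactivator, overlapped 28.6% and 22.9% of the RNAPII sites on MMERVK in DMSO against 71.4% and 68.6% after dTAG-13. That difference of 44.3 percentage points was 25.7 with the 5000 strongest peaks and 1.43 with all deposited peaks (exact permutation p = 1). At dTAG-13-only sites its share was 22.7% and 19.7% in DMSO and 37.9% in both dTAG-13 libraries, although with all deposited peaks the dTAG-13 minus DMSO difference was -12.9 percentage points. At sites of all 4 libraries it was 56.5% and 56.3% in DMSO against 33.9% and 32.4% after dTAG-13, and at SE sites 87.2% and 88.7% against 75.2% and 73.8%. Each exact permutation test gave p = 0.333. H3K27Ac, a mark of active enhancers and promoters, overlapped 18.2%, 24.2% and 21.2% of the dTAG-13-only sites in DMSO against 37.9%, 37.9% and 34.8% after dTAG-13 (exact permutation p = 0.1). With all deposited peaks that difference was 5.56 percentage points in place of 15.7 (exact permutation p = 0.4). On SE sites its shares were 83.7%, 87.9% and 84.4% in DMSO against 68.8%, 78.0% and 61.7% after dTAG-13 (exact permutation p = 0.1). At DMSO-only sites they were 49.3%, 46.4% and 45.5% in DMSO against 27.1%, 50.0% and 15.1% after dTAG-13, where the groups overlapped (exact permutation p = 0.4). The H3K27Ac library at 50.0% (dTAG-13 replicate 2) had 117348 deposited peaks against 30259 and 45662 in the other two.

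**Figure D5:**
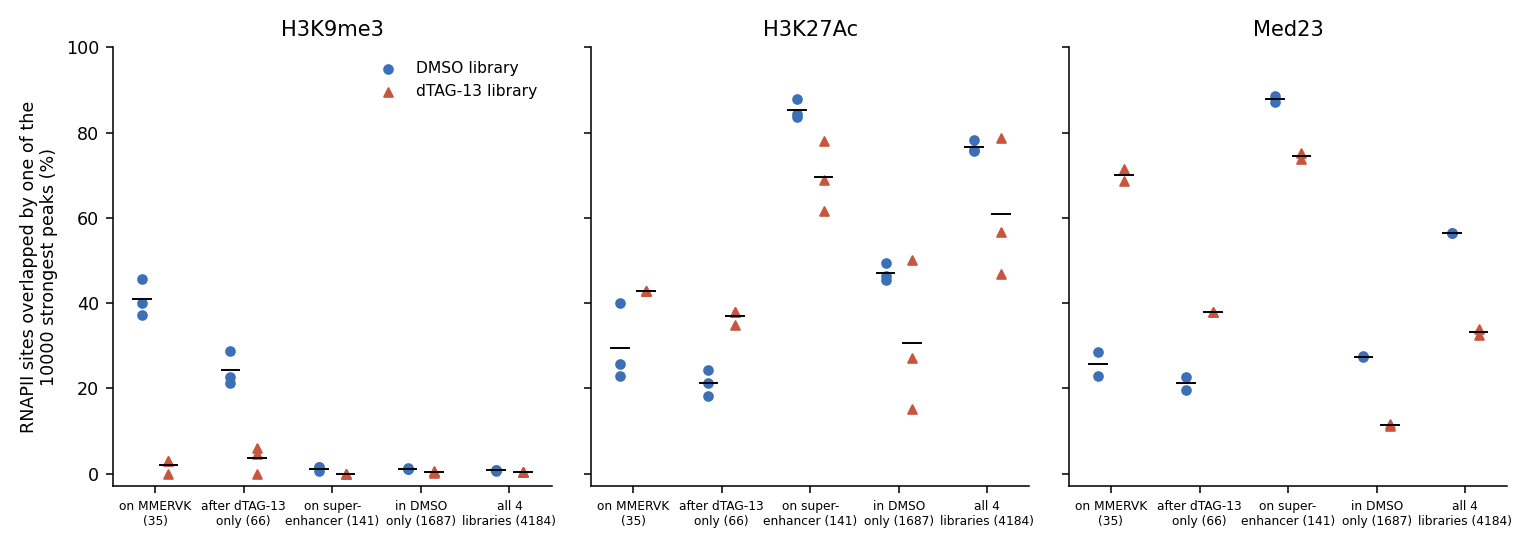
Share of RNAPII sites of 5 classes overlapped by one of the 10000 strongest H3K9me3, H3K27Ac or MED23 peaks in each library (DMSO, blue circles; dTAG-13, red triangles; bars, means; 3, 3 and 2 libraries per group). On MMERVK the H3K9me3 shares went from at least 37.1% to at most 2.86%, and the MED23 shares from 28.6% and 22.9% to 71.4% and 68.6%, a difference that was 1.43 percentage points with all deposited peaks.

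RNAPII at gene starts and the output of the genes showed little relation. Nascent transcription was measured by TT-SLAM-seq in 3 DMSO libraries labelled 0 h and 3 dTAG-13 libraries at 24 h. The DMSO libraries of mRNA are labelled 0 h too, unlike those of RNAPII. Of 13357 genes tested, 4316 were higher (32.3%) and 747 lower (5.59%), with a median log2 difference of 0.21 (limma, adjusted p below 0.05). With libraries centred on their medians 1858 were higher and 2249 lower. Genes whose start had more RNAPII had a median of 0.15, with 355 of 1153 higher and 94 lower. Genes whose start had less RNAPII had a median of 0.14, with 454 of 1566 higher and 120 lower. Genes with a DMSO-only start site had a median of 0.19, with 384 of 1038 higher and 49 lower. Across 4623 genes Spearman's rho between both log2 differences was 0.033, a description across genes that share libraries. In mRNA 7681 of 17922 genes were higher (42.9%) and 4486 lower (25.0%), with a median of 0.13, whereas with libraries centred on their medians 4643 were higher and 7900 lower. The medians were 0.04 for genes with more RNAPII at the start, -0.02 for those with less and 0.13 for those with a DMSO-only site, with a rho of 0.056 across 4739 genes.

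Single genes showed the same lack of a common direction. Klf4 was lower in both readouts, with log2 differences of -0.85 in RNAPII and -1.02 in nascent transcription. Fos was lower in RNAPII (-0.82) and higher in nascent transcription, from a mean of 2.46 to 15.5 FPKM (log2 difference 2.42). Btg2 was lower in RNAPII (-1.21) and higher in nascent transcription (1.17), and Dusp1 was lower in RNAPII (-2.08) with a nascent difference of 0.05. Over the immediate early list 12 of 17 genes were higher in nascent transcription and 1 was lower, with a median of 0.85. Gm15446, the largest rise in RNAPII, was higher by 0.47 in nascent transcription and by 1.02 in mRNA.

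Cell type markers were checked by deposited start peaks in any of the 4 libraries. These were found at 8 of 10 mESC markers, at none of 20 feeder fibroblast markers, at 3 of 10 neural markers and at 2 of 6 markers of 2-cell-like cells. In both DMSO libraries they were found at 7 mESC markers, 3 neural markers and none of the 2-cell-like markers.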

How the data were processed

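RNAPII was profiled by ChIP-seq in 2 DMSO and 2 dTAG-13 samples with antibody 8WG16 and fly cells as a spike-in. Per the deposited notes, reads were trimmed with cutadapt 2.4, aligned to mm10 with BWA, filtered with SAMtools and GATK 4.1.4.1 and called with MACS2. In the peak files deposited per library, the authors give the fold enrichment over input (a ratio) and the −log10 q of each peak, with no read counts. Nascent transcription was deposited by the authors as FPKM per gene, and mRNA as TPM from STAR 2.7.5a and StringTie 2.0.6.

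The members and gene lists were chosen with earlier results of these data known. A planned 10000 peaks per library exceeded the shortest list, so the strongest 7689 by fold enrichment were used in each. Peaks overlapping by at least 1 bp were merged into sites. Sites were placed by their summit within 1000 bp of a gene's start, in a gene or outside (54409 genes). Log2 fold enrichment, median-centred per library, was fitted with limma 3.58.1 (R 4.3.3; trend, Benjamini-Hochberg threshold 0.05), and log2(FPKM + 0.5) in 12 libraries and log2(TPM + 0.5) in 15 libraries of the time course likewise, for genes of at least 0.5 FPKM or 1 TPM in 3 libraries or more. Scripts were tested on simulated data. Shares were compared by two-sided exact permutation. Sequences of 300 bp were read from RefSeq's GRCm38 (mm10) with pysam 0.24.0. Named sites were the 10 largest called rises and falls at starts, the 5 largest in bodies and at distal sites, the 10 strongest sites of 1 group only and the 10 strongest of all. Strong sites were added after the data were seen. Same-numbered samples did not deviate together, and the labels do not tie them. Alternatives were other peak numbers, ranking by q, centring, filters, pseudocounts, a replicate block and leaving out each library.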

Additional observations from a re-analysis of the deposited data

How the results depend on the processing

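Read depth is unknown, 2 libraries per group allow no exact p below 0.333, and weak sites enter a comparison only with a peak in every library. Without centring, 265 sites were higher and 3848 lower, and among strong sites 6 and 780. With all deposited peaks the dTAG-13 minus DMSO differences were 16.9 percentage points at starts, -11.0 in bodies and -5.85 at distal sites, and -12.9 for MED23 at dTAG-13-only sites. With 5000 peaks they were 0.866 for SEs and 0.674 for MMETn overlapped and 0 for H3K9me3 on SE sites, and 642 sites were in DMSO only. Ranked by q, MMETn gave 0.899. With no used peak as absence, 730 sites were after dTAG-13 only, and leaving out 1 library gave 89 to 189, the highest without dTAG-13 replicate 1. The cause of these shifts was not tested. A planned 20000 peaks coincide with the 7689 used.

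Same-numbered replicates showed a correlation of deviations of 0.00413. With a replicate block 1695 sites were higher and 1450 lower, and 283 and 353 of the strong ones, and 60 of 60 named sites kept their direction and side of the threshold.

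Over all genes a mean of at least 5 gave 80 higher and 121 lower in nascent transcription and 5096 and 3794 in mRNA, no filter 7480 and 1179 in nascent transcription, and leaving out DMSO replicate 1 lowered the nascent falls to 487. Medians of start-site classes minus the median of all genes moved as follows. For nascent transcription a mean of at least 5 gave -0.0897 (DMSO-only), -0.0121 (higher) and -0.00612 (lower), no filter 0.108, 0.0666 and 0.0692, and a pseudocount of 0.1 gave -0.100 (higher) and -0.122 (lower), with -0.0817 to -0.0516 for higher without 1 library. For mRNA a mean of at least 5 gave 0.0281 (DMSO-only) and -0.118 (lower), no filter 0.0838, -0.00401 (higher) and -0.0462, a pseudocount of 0.1 gave -0.00614 (DMSO-only) and -0.159 (lower) and one of 1 gave -0.137 (lower). Leaving out 1 library gave -0.00540 to 0.00338 (DMSO-only) and -0.156 to -0.139 (lower).

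Single sites turned sign. Without centring Snord118 was -0.90, Rnu3a -0.38, Dppa5a -0.087, Jun -0.85, Polr2g -0.32, Cbx5 -0.32, Med22 -0.00486 and Id1 -0.27. Against strong sites Rnu3b3 was 0.29, Rnu7 0.091, Mir290a 0.31, Atf4 0.25, Polr2a 0.47, Hexim1 0.12 and Cldn4 0.053. Polr2a was 0.039 with a used peak in all 4 libraries. Snord118 was -0.15 with loess and -0.26 with quantile normalization. Leaving out 1 library gave -0.029 to 0.12 for Snord118 and -0.18 to 0.37 for Jun, both lowest without dTAG-13 replicate 1 and past the threshold without replicate 2. Calls were lost for Atf4 and Hexim1 without DMSO replicate 1, DMSO replicate 2 or dTAG-13 replicate 2, for Rnu3b3 without either DMSO library, for Polr2g without DMSO replicate 1 and for Atrx without DMSO replicate 2. Sox2 and Mir290a passed the threshold without dTAG-13 replicate 1. Without centring calls were lost for Sall4, Klf6 (0.018), Cyr61 (0.27) and Cdc73 (0.040), and against strong sites for Klf2. The Cldn4 value is that of its start site.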
